A study of Mus musculus with 6 samples.

Results

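The Slc15 family of proton-coupled peptide transporters was followed in infarcted mouse hearts that received control mimic or miR-19a/19b mimic. Its members were taken by gene symbol as Slc15a1, Slc15a2, Slc15a3 and Slc15a4, which are 4 of the 26012 genes listed. A mean of at least 1 normalized count, each gene's reads divided by the size factor of its library, was required for a test, and 3 of the 4 members were among the 21126 genes that met it. The family was chosen by its symbols, but with the difference of Slc15a2 between these same groups already known, so the change of Slc15a2 is given as a description and supports nothing further.

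The samples were pieces of ventricle from C57BL/6 mice, male and 8 weeks old, in which ligation of the left anterior descending (LAD) artery had produced myocardial infarction (MI). All 6 hearts had MI, received 10 μg of mimic by injection into the heart at the time of ligation, and were collected on day 4. The control group was 3 hearts given control mimic, and the treated group was 3 hearts given miR-19a/19b mimic. A miRNA mimic is a synthetic duplex that supplies the cell with the mature miRNA. Where the study's methods combine miR-19a and miR-19b, the dose is split equally between them. Polyadenylated RNA was sequenced, and there was no group without MI or without an injection, so levels in the uninjured heart were not measured here. The labels do not say how much of each sample was infarct, border or remote tissue. Because each sample was a piece of whole tissue, fewer cells of a type and less RNA per cell cannot be told apart.

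Members of the Slc15 family carry short peptides across membranes together with protons, so that a proton gradient drives the transport. Slc15a1 (PEPT1) and Slc15a2 (PEPT2) act at the cell surface, where the first takes up dietary peptides in the intestine and the second is a high-affinity carrier known from kidney, lung and brain. Slc15a3 (PHT2) and Slc15a4 (PHT1) sit in endosomes and lysosomes, mostly of immune cells, and move histidine and short peptides, including fragments of bacterial cell wall, out into the cytosol. Slc15a4 also holds the adaptor TASL, through which Toll-like receptors of the endosome activate the transcription factor IRF5. RNA levels do not show in which membrane a protein lies, so surface and endolysosomal are used here as background names.

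The miRNAs supplied to the treated hearts are shown because a miRNA pairs with its target transcripts mainly through its seed. The mature sequences are those of RefSeq (GRCm38.p6), written 5′ to 3′ with the seed, bases 2 to 8 counted from the 5′ end, in capitals.
mmu-miR-19a-3p: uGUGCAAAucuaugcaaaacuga
mmu-miR-19b-3p: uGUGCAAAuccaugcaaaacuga
Both are 23 bases long, share the seed GUGCAAA and differ by 1 base outside it, U11C from miR-19a to miR-19b. Mir19a lies at chr14:115044048-115044070 on the plus strand, and miR-19b is encoded at chr14:115044358-115044380 on the plus strand and at chrX:52741991-52742013 on the minus strand. The longest 3′ UTRs of Slc15a1, Slc15a2, Slc15a3 and Slc15a4 in GENCODE M21 are 961, 1601, 131 and 960 bases. They were searched on the transcript strand for the 8-mer TTTGCACA, the 7-mers TTTGCAC and TTGCACA, which the 8-mer contains, and the 6-mer TTGCAC, which all of them contain. None of the 4 members held a match of any of these kinds. Among the 15820 tested genes with a 3′ UTR, 18.4% held a 7-mer and 25.9% held the 6-mer. Within 25% of the UTR length of Slc15a2, 29.1% of UTRs held the 6-mer, and for Slc15a3 the share was 2.5%. The letters are therefore missing from these windows, which says nothing of coding sequence, other transcripts or pairing outside the seed.

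Between 19398196 and 23645308 reads were counted on genes in each heart. All 8 cardiomyocyte markers examined were detected in the tissue. The heart labelled miR-19a/19b mimic replicate 3 stood apart, with the lowest sum of cardiomyocyte markers (285660 normalized counts, against 470568 to 842688 in the other 5 hearts) and a high sum of macrophage markers. Replicate 1 of the same group held skeletal muscle markers at a summed 2299 normalized counts, against 29.3 to 69.2 in the other hearts. Values without these hearts are given where they change a result, and replicate 3 of the treated group was the one that did so for calls.

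Slc15a1 (ENSMUSG00000025557, chr14:121459621-121505254, minus strand, GRCm38), the intestinal carrier, was close to undetected. Control replicates 1 to 3 held 1, 0 and 1 reads, and miR-19a/19b mimic replicates 1 to 3 held 0, 0 and 1. With 3 reads in all 6 hearts, no comparison between the groups was possible at this depth. Slc15a5 (ENSMUSG00000044378), the remaining family gene and not a member of the set, also had 3 reads in all.

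Slc15a2 (ENSMUSG00000022899, chr16:36750178-36784962, minus strand), the high-affinity surface carrier, was at 68.5, 55.6 and 76.6 normalized counts in control replicates 1 to 3, from 62, 57 and 82 reads. In miR-19a/19b mimic replicates 1 to 3 it was at 168, 263 and 165 normalized counts, from 156, 255 and 191 reads. Every treated heart was above every control heart, as for 3.9% of all genes tested, and the lowest treated heart was 2.16 times the highest control heart. Group means were 66.9 ± 10.6 and 199 ± 55.7 normalized counts (SD, n = 3 each), a ratio of 2.97. The treated group was also the more spread, since replicate 2 lay well above the other two hearts.

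The fitted log2 fold change of Slc15a2 on log2(normalized count + 1) was 1.53 (SE 0.22, 95% interval 1.03 to 2.03), or 2.89-fold with an interval of 2.05 to 4.09. In limma over all 21126 genes its unadjusted p was 7.16e-05 and its adjusted p 0.396, so it did not pass the threshold of 0.05. It ranked 3 of 21126 by p and 14 of the 15513 genes with a mean of at least 10 by log2 fold change. By limma, 0% of genes passed in either direction, and 4.01% had an unadjusted p under 0.05, 2.63% with a lower and 1.39% with a higher level in treated hearts. With DESeq2 on the recovered reads the adjusted p of Slc15a2 was 1.75e-05, and it was the 1 gene called higher (0.00473% of genes) beside 28 called lower (0.133%). Without miR-19a/19b mimic replicate 3 its limma adjusted p was 0.00924, in a fit that called 383 genes higher and 164 lower. Over all alternatives the adjusted p of Slc15a2 ran from 1.75e-05 to 0.99991 with log2 fold changes between 1.31 and 1.65. Its unadjusted p was under 0.05 in 14 of 14 alternatives. These refits use the same hearts, whose difference in Slc15a2 was known beforehand, so the tally adds no support.

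**Figure D1:**
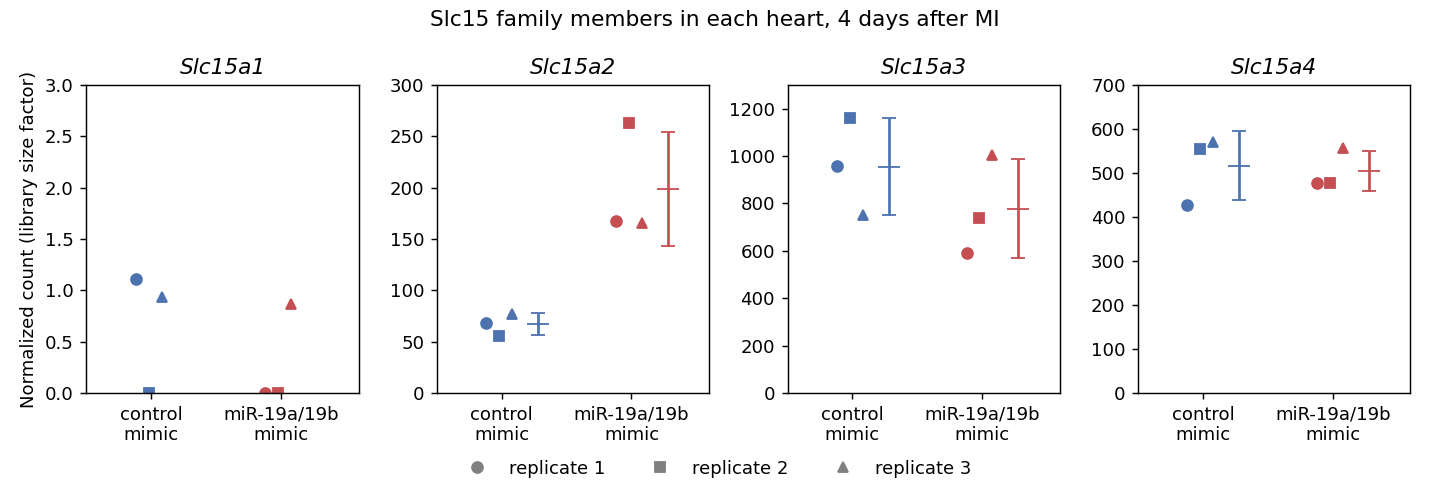
Normalized counts (vertical axes, each from 0 and on its own scale) of the 4 members in each heart, with symbols for replicate number and bars for the mean and SD of 3 hearts, which are left out for Slc15a1. The 3 treated hearts sit at 165 to 263 for Slc15a2, above the control hearts at 55.6 to 76.6, while the groups overlap for Slc15a3 and Slc15a4 and Slc15a1 stays near 1 or at 0.

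No tissue source of the Slc15a2 reads could be read from the bulk samples, so markers of cells that may carry it were set beside it. All 6 mesothelial markers had a positive log2 fold change, none of them with an unadjusted p under 0.05, and their sum was 373 to 930 normalized counts in control hearts and 755 to 1245 in treated hearts. The 6 glial markers summed to 409 to 461 and 407 to 499, a sum made up mostly of Mbp (302 and 262 normalized counts). Of the 4 glial markers with a positive value, Kcna1 was at 7.76 ± 2.06 and 18.8 ± 6.58 normalized counts (log2 fold change 1.14). Its limma unadjusted p was 0.0167, against 1.39% of all genes in that direction, and its adjusted p 0.9996. Sox10 was at 30.2 ± 8.91 and 41.4 ± 3.31 (log2 fold change 0.49). Groups did not overlap for these 2, as for 3.9% of all genes in that direction. The other 2 glial markers, S100b (log2 fold change -0.30) and Mbp (-0.24), were negative. Lung epithelial markers, of which 3 of 6 were under the mean of 1, summed to 68.3 to 95.1 and 75.3 to 100. Most of this sum was Ager (62.0 and 57.3 normalized counts, log2 fold change -0.10). The other 2 tested lung markers, Sftpb (log2 fold change 0.49) and Foxj1 (0.91), were positive with overlapping groups. The groups overlapped for the mesothelial, glial and lung epithelial sums. The part of these cells in the level of Slc15a2 was not tested. The skeletal muscle signal was found in replicate 1 of the treated hearts, and Slc15a2 there was 168 normalized counts, close to the 165 of replicate 3.

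Slc15a3 (ENSMUSG00000024737, chr19:10839727-10859362, plus strand), the lysosomal carrier of macrophages and other immune cells, was the most abundant member. It was at 958, 1159 and 749 normalized counts in control replicates 1 to 3 and at 590, 740 and 1004 in miR-19a/19b mimic replicates 1 to 3. The groups overlapped, with treated replicate 3 above 2 of the 3 control hearts. Means were 956 ± 205 and 778 ± 210 normalized counts (SD, n = 3 each). The log2 fold change was -0.31 (SE 0.21, 95% interval -0.79 to 0.17), with a limma unadjusted p of 0.181 and an adjusted p of 0.9996. Without treated replicate 3 it was -0.51 (unadjusted p 0.00964, adjusted p 0.150), and without treated replicate 1 it was -0.13. All 14 alternatives had the same sign. The interval runs from 0.579-fold to 1.13-fold, so neither a fall to the lower bound nor a small rise could be told from no change with 3 hearts per group.

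A further limit on Slc15a3 is its neighbour Tmem132a, which overlaps it on the opposite strand over 1541 of its 5491 exon bases. The library kit is not stated to keep the strand, and how reads over both genes were counted is not stated either. Reads from these bases could therefore have been given to either gene or to neither. Levels of Slc15a3 per kilobase of exon divide by all 5491 bases and carry the same limit. Tmem132a itself was at 1005 and 1057 normalized counts in the control and treated hearts (log2 fold change 0.07, adjusted p 0.9996).

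Summed macrophage markers moved in part with Slc15a3 from heart to heart. The sum of 9 such markers was 51363, 66733 and 51503 normalized counts in control replicates 1 to 3 and 44566, 49420 and 65211 in treated replicates 1 to 3. C1qa, C1qb and Lgals3 were its largest parts, with means over 6 hearts of 12412.7, 11438.8 and 10550.5 normalized counts. Of the 9 markers 6 had a negative log2 fold change and 3 a positive one. Control replicate 2 and treated replicate 3 were the highest for both the marker sum and Slc15a3, and treated replicate 1 was the lowest for both, while control replicates 1 and 3 had nearly the same marker sum and differed in Slc15a3. Per 1000 macrophage marker counts, Slc15a3 was 18.7, 17.4 and 14.5 in control hearts and 13.2, 15.0 and 15.4 in treated hearts, and these groups overlapped as well. Both measures come from the same libraries, and the part of macrophage number in the level of Slc15a3 was not tested.

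**Figure D2:**
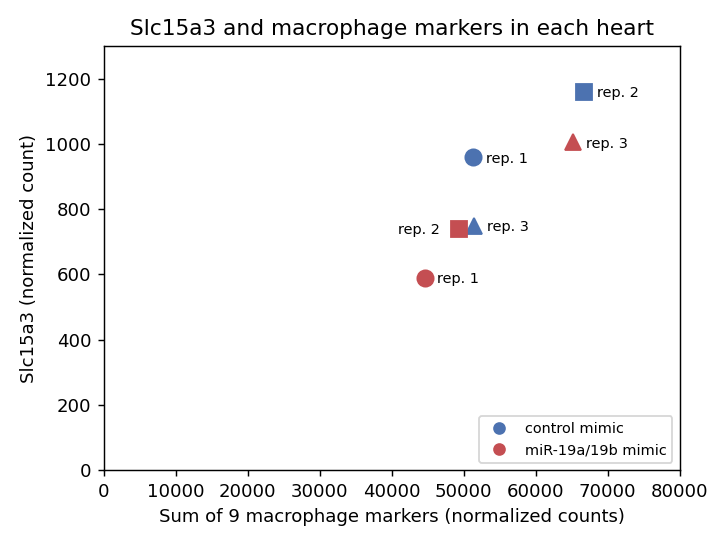
Slc15a3 (normalized count, vertical axis) against the sum of 9 macrophage markers (normalized counts, horizontal axis), 1 point per heart, coloured by group and labelled by replicate. The 2 hearts with the highest marker sums, control replicate 2 and treated replicate 3, are also the hearts with the highest Slc15a3 (1159 and 1004), and treated replicate 1 is lowest on both axes.

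Slc15a4 (ENSMUSG00000029416, chr5:127595664-127632897, minus strand), the endolysosomal partner of TASL, was the steadiest member. It was at 427, 553 and 570 normalized counts in control replicates 1 to 3 and at 478, 477 and 558 in treated replicates 1 to 3. All treated hearts lay within the range of the control hearts. Means were 517 ± 78.4 and 504 ± 46.2 normalized counts (SD, n = 3 each), with a log2 fold change of -0.03 (SE 0.14, 95% interval -0.34 to 0.29; limma adjusted p 0.9996). The interval corresponds to 0.789-fold to 1.22-fold, and the sign of so small a value turned in 4 of the 6 fits that left out a heart. On the other strand the unlisted gene Gm43474 shares 427 exon bases with Slc15a4, while Glt1d1 overlaps its span without sharing exon bases.

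**Figure D3:**
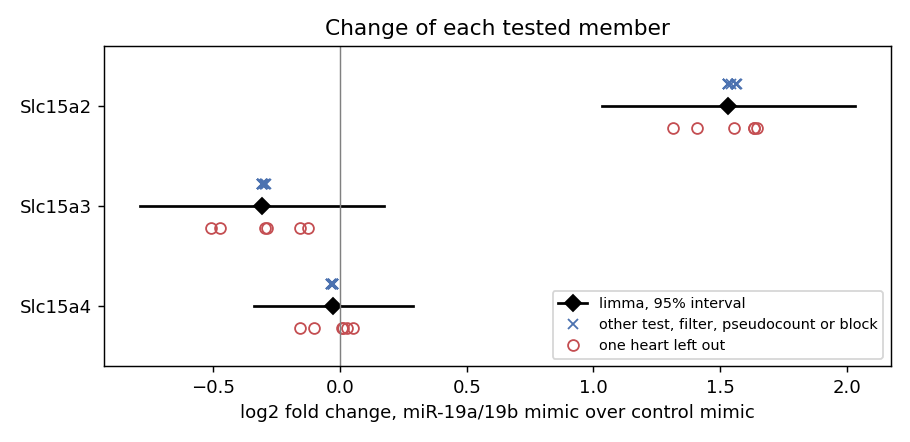
Log2 fold change of the 3 tested members (horizontal axis, miR-19a/19b mimic over control mimic), with the limma estimate and its 95% interval as diamonds and lines, other tests, filters, pseudocount and block as crosses, and fits without 1 heart as circles. Slc15a2 stays between 1.31 and 1.65 in all alternatives, Slc15a3 between -0.51 and -0.13, and Slc15a4 between -0.16 and 0.05 on both sides of 0.

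To compare levels between members, normalized counts were divided by the length of all annotated exons of the gene in kilobases. On this scale the mean level over 6 hearts was 158 for Slc15a3, 96.1 for Slc15a4, 18.0 for Slc15a2 and 0.0991 for Slc15a1. The range over hearts was 107 to 211 for Slc15a3 and 80.3 to 107 for Slc15a4, so the upper pair of the order all but touched, although Slc15a3 was the higher in each of the 6 hearts. Slc15a2 ranged from 7.56 to 35.7, below every heart of Slc15a4 and above every heart of Slc15a1. With the longest transcript as the length, the means of Slc15a3 and Slc15a4 were 178 and 174 and their ranges overlapped. These transcripts, of 4868 and 2936 bases, are not coding ones, and the longest coding transcripts are 2345 and 2732 bases. With the coding length the means were 499.9 and 296, and the ranges, 340 to 669 and 248 to 331, did not overlap. The order of the 2 means was the same with each length, while the gap between them was not.

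The make-up of the family within each library, on the same per-kilobase scale, does not depend on the library size factor. Slc15a2 made up 3.52%, 2.34% and 4.09% of the family level in control replicates 1 to 3 and 10.4%, 13.7% and 7.22% in treated replicates 1 to 3, without overlap. Slc15a3 made up 53.7% to 66.0% in control hearts and 48.8% to 58.9% in treated hearts. Slc15a4 made up 30.4% to 42.2% and 33.8% to 40.9%. Both endolysosomal shares overlapped between the groups. The log2 ratio of Slc15a2 to the sum of Slc15a3 and Slc15a4 was -4.77, -5.38 and -4.55 in control hearts and -3.11, -2.65 and -3.68 in treated hearts, a mean difference of 1.75. A two-sided exact permutation test of 3 hearts against 3 gave p = 0.1, the smallest it can give, and this ratio repeats the Slc15a2 difference rather than adding to it. The ratio of Slc15a3 to Slc15a4 differed by -0.28 on the log2 scale (exact permutation p = 0.4), and its groups overlapped.

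**Figure D4:**
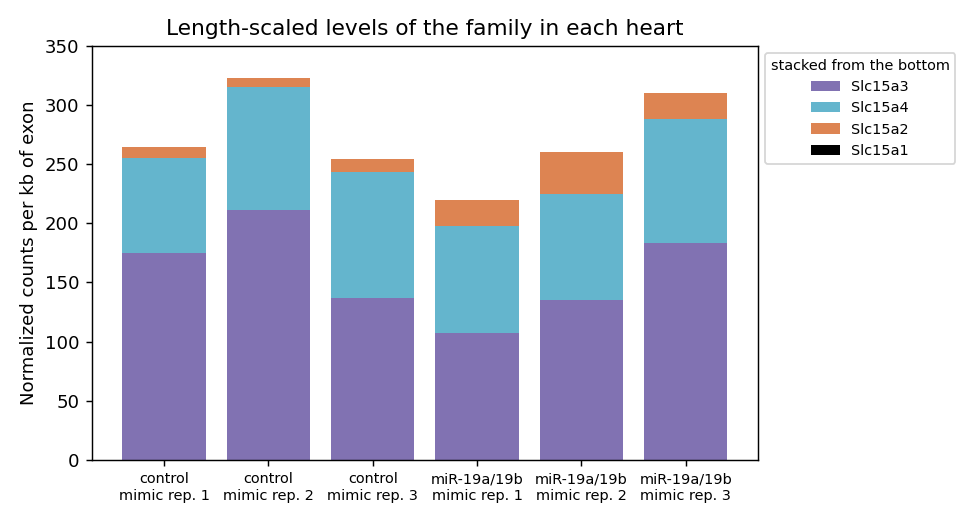
Normalized counts per kilobase of exon (vertical axis, from 0) of the members in each heart, stacked from Slc15a3 at the bottom through Slc15a4 to Slc15a2, with Slc15a1 too low to be seen. The endolysosomal pair fills most of every bar, and the Slc15a2 segment is 2.34% to 4.09% of the bar in control hearts and 7.22% to 13.7% in treated hearts.

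The genes beside each member on its chromosome were read as well. The nearest tested gene on either side of Slc15a2 was Ildr1 at 23.4 kb, with 4.34 and 2.61 normalized counts in control and treated hearts, and Eaf2 at 7.9 kb, with 17.0 and 16.0 (log2 fold change 0.01). Next to Slc15a3, the lymphocyte receptor gene Cd6 at 9.7 kb was at 20.6 and 16.3 normalized counts and Tmem109 at 11.3 kb at 2356 and 2540. Next to Slc15a4, Gm42980 at 15.6 kb was at 0.325 and 1.93 normalized counts and Tmem132d at 148.7 kb at 2.72 and 1.85. Around Slc15a1, Stk24 at 79.6 kb and Dock9 at 36.8 kb were at 1414 and 1352 and at 1213 and 1234. Each of these neighbours had a limma adjusted p of 0.9996.

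Across the 6 hearts, the genes whose log2 levels followed each member most closely were taken from 15512 genes by Pearson's r, as a description with no p, since with 6 points in shared libraries many genes reach a high r. For Slc15a2 they were 3110002H16Rik (0.995), Gas2 (0.989), Nubpl (0.975), Smpd2 (0.967) and Cxx1b (0.961). Their treated-to-control ratios of means were 1.09 to 1.27, against 2.97 for Slc15a2, and a direction shared with it follows from how they were picked. For Slc15a3 they were Adss (0.997), Piwil2 (0.994), Sertad1 (0.992), Hpcal1 (0.989) and 2610203C20Rik (0.987), and for Slc15a4 Pi15 (0.982), Gm43223 (0.978), Fam171b (0.977), Socs4 (0.972) and Nfya (0.971). The number of genes over an r of 0.95 was 13 for Slc15a2, 89 for Slc15a3 and 18 for Slc15a4.

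Slc15a4 works with the endosomal receptors for nucleic acids. A list of 18 tested genes held these receptors with their chaperones, adaptors and kinases, and also Nod1, Nod2 and Ripk2, the cytosolic sensors of bacterial cell wall fragments and their kinase, whose ligands the endolysosomal carriers move. Like the other gene lists, it was chosen with earlier results of these data known, so its counts are a description and support nothing further. None of the 18 genes passed an adjusted p of 0.05 in limma. A negative log2 fold change was found for 17 of 18, and the median was -0.15, against 0.0041 over all genes. Irf7, Tlr9 and 5430427O19Rik were the 3 with an unadjusted p under 0.05, all lower in treated hearts, where 2.63% of all genes had such a p in that direction. Groups did not overlap for these 3 and for Traf6, all lower, against 5.3% of all genes in that direction and 9.2% in either. Irf7, the interferon-inducible transcription factor, was at 5031 ± 936 and 3021 ± 526 normalized counts (log2 fold change -0.73, SE 0.17, adjusted p 0.806). Tlr9, the receptor for unmethylated CpG DNA, was at 509 ± 31.2 and 319 ± 72.6 (log2 fold change -0.69, SE 0.16, adjusted p 0.817).

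5430427O19Rik, the mouse gene for TASL, which binds Slc15a4 itself, was at 99.5, 120 and 105 normalized counts in control replicates 1 to 3 and at 65.6, 76.3 and 86.4 in treated replicates 1 to 3. Every treated heart was below every control heart, and the log2 fold change was -0.50 (SE 0.18, unadjusted p 0.0187, adjusted p 0.9996). Slc15a4, its partner, differed by -0.03 and Irf5, the factor downstream of both, by -0.13 in the same fit. Without treated replicate 3, Tlr9 (-0.86, adjusted p 0.00980) and Unc93b1, the chaperone of these receptors (-0.52, adjusted p 0.0286), passed the threshold, and 164 genes were called lower in all. Markers of immune cells were set beside these genes. Conventional dendritic cell markers, 4 of 6 negative, summed to 776 to 801 in control hearts and 677 to 718 in treated hearts, without overlap. Zbtb46, with a log2 fold change of 0.0005, was the largest part of this sum (421 and 422 normalized counts). Clec9a (log2 fold change 0.19) was the other marker without a negative value. The 4 negative ones were Flt3 (-0.54), Xcr1 (-0.97), Cd209a (-0.85) and Ccr7 (-0.82), and the median of the 6 was -0.68. Each of these 4 had a limma unadjusted p under 0.05, against 2.63% of all genes in that direction. Their groups did not overlap, as for 5.3% of all genes in that direction, and none passed an adjusted p of 0.05. Of the plasmacytoid dendritic cell markers 5 of 6 were negative, and their sum is not informative because Cox6a2, which heart muscle also expresses, and the widely expressed Tcf4 and Bst2 make up most of it. Among the rarer of these markers, Siglech was at 21.5 ± 4.89 and 13.4 ± 4.42 normalized counts and Ccr9 at 7.56 ± 4.97 and 4.29 ± 1.65, both with overlapping groups, while the interferon-inducible Bst2 did not overlap (log2 fold change -0.62, unadjusted p 0.00765 in limma). All 6 T cell markers were negative, with sums of 199 to 287 in control hearts and 151 to 175 in treated hearts, without overlap. Of the neutrophil markers 5 of 6 were negative, with overlapping sums of 745 to 1080 and 328 to 1276. The part of these cells in the sensing genes was not tested.

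**Figure D5:**
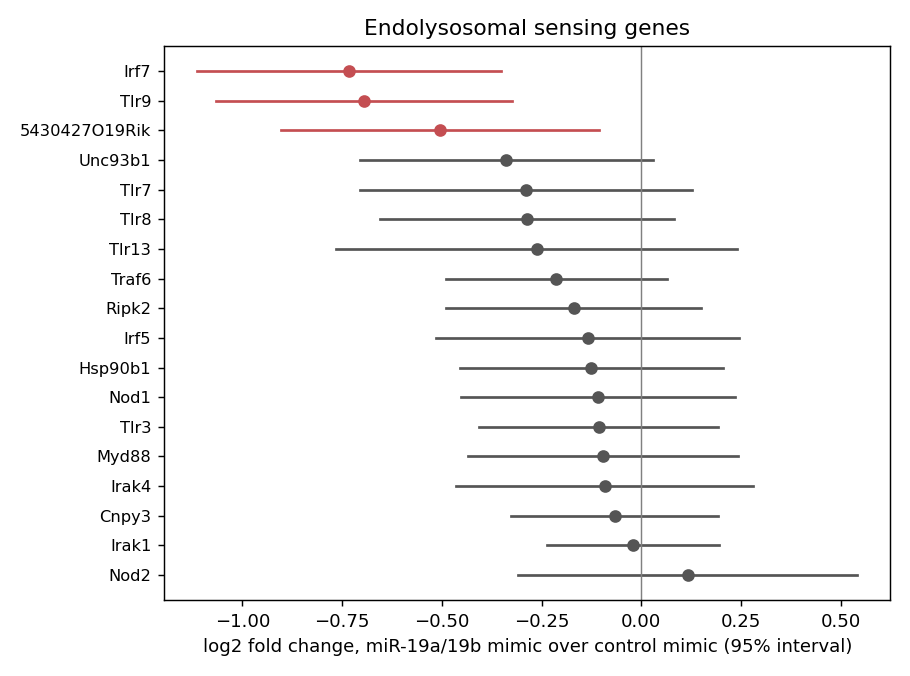
Log2 fold change (horizontal axis, miR-19a/19b mimic over control mimic) with 95% interval for the 18 endolysosomal sensing genes, ordered by value, with an unadjusted p under 0.05 in red. Irf7, Tlr9 and 5430427O19Rik have intervals below 0, and Nod2 is the 1 gene with a positive value.

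Other genes of peptide handling had medians near that of all genes. Of 12 tested exporters of lysosomal solutes 6 were negative and 6 positive (median -0.01), and the most abundant, Mfsd1, a lysosomal dipeptide carrier, and its partner Glmp averaged 2288 and 2006 normalized counts over the 6 hearts. Of 17 tested genes of peptide breakdown, mostly peptidases but also Carns1, which makes the dipeptide carnosine, 10 were positive (median 0.05). The dipeptidase Dpep1, at 1136 ± 82.6 and 1376 ± 115 normalized counts (log2 fold change 0.28), and the gamma-glutamyltransferase Ggt5, at 392 ± 30.2 and 477 ± 38.8 (log2 fold change 0.28), were the 2 with an unadjusted p under 0.05, against 1.39% of all genes in that direction. Of 15 tested genes of proton supply, such as the vacuolar ATPase subunits that acidify lysosomes, 11 were negative with a median of -0.03, and the most abundant, Tcirg1 and Atp6ap1, averaged 5007 and 4233 normalized counts. Of 14 general lysosome genes 11 were negative (median -0.05), and cathepsin S (Ctss), at 16329 ± 2114 and 12190 ± 2809 normalized counts, was the 1 with an unadjusted p under 0.05 (log2 fold change -0.44), against 2.63% of all genes in that direction. None of the genes in these lists had a limma adjusted p under 0.05.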

How the data were processed

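RNA-seq of 6 mouse hearts was analysed, 3 given control mimic and 3 given miR-19a/19b mimic, grouped by their labels. The authors aligned reads with STAR 2.5.1b, counted them with HTSeq 0.6.0 and deposited a signal, the count of each gene divided by a DESeq2 (1.10.1) size factor (versions and the build mm9 are from the submitters' processing notes). The coordinates in the table were those of GRCm38 and not mm9: 25884 of 26012 identifiers were in GENCODE M21, of which 99.938% had their chromosome there and 82.7% had both ends at equal positions, and lengths, UTRs and neighbours were taken from GENCODE M21. The same table also holds the authors' own log2 fold changes and p-values, which were not used.

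Reads were recovered as whole numbers for 100% of values (tolerance 0.01). Since the values were normalized, the test was limma 3.58.1 (R 4.3.3) with a trend on log2(normalized count + 1), for 21126 genes with a mean of at least 1, adjusted by Benjamini-Hochberg over all of them and called under 0.05. At that mean a gene is measured by only 1 read or so in a library. DESeq2 1.42.0, edgeR 4.0.16 and limma-voom on recovered reads, other filters, a pseudocount of 0.1, a replicate block and leaving out each heart were alternatives. The tests were tested on simulated data. The study names edgeR for its own analysis.

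The members and gene lists were chosen with earlier results of these data known. Named genes are the family, in each list those with an unadjusted p under 0.05 or else the 2 most abundant, the 5 most correlated genes per member, and overlapping or neighbouring genes. Unc93b1, Slc29a3, Traf6, Irf5, Nod1, Nod2, Ripk2, Carns1 and the single cell type markers fall outside this rule and were named after their values were seen. They are partners of Slc15a4, genes that pass when a heart is left out, or show what makes up a list, count or sum. Marker sums add normalized counts over lists of cell type markers. P-values measure the spread between hearts that the labels call replicates. Counting noise did not account for the differences between replicate hearts, whose chi-square divided by its degrees of freedom was 10.3 to 135.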

Additional observations from a re-analysis of the deposited data

How the results depend on the processing

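With 3 hearts per group, the call for Slc15a2 depended on the test and on 1 heart. Its log2 fold change was 1.57 with DESeq2 (adjusted p 1.75e-05) and 1.56 with edgeR's exact test (adjusted p 1.86e-05), both past the threshold. With edgeR's quasi-likelihood test, limma-voom, no filter, at least 10 normalized counts in every heart and a pseudocount of 0.1, its adjusted p was 0.384, 0.399, 0.298, 0.510 and 0.441. Leaving out each heart gave log2 fold changes of 1.31 to 1.65 for Slc15a2 and -0.16 to 0.05 for Slc15a4, for which the sign turned without control replicates 2 (0.03) or 3 (0.049) or treated replicates 1 (0.01) or 2 (0.01). Slc15a3 kept its sign in 14 of 14 alternatives (-0.51 to -0.13). Slc15a1 was not tested. The cause of these differences between settings was not tested.

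Over all genes, 0 were called by limma in either direction, where 555 lower and 293 higher had an unadjusted p under 0.05. DESeq2 called 28 lower and 1 higher, edgeR's exact test 28 lower and 2 higher, and leaving out each heart 0 to 164 lower and 0 to 383 higher, the upper ends without miR-19a/19b mimic replicate 3. Among the family, 1 gene was called higher by DESeq2, by the exact test and without that heart. Leaving out each heart gave 0 to 1 called higher in the family, 0 to 2 called lower among endolysosomal sensing genes, and 0 to 1 called lower among lysosomal solute exporters (Slc29a3) and among lysosome genes (Ctss, -0.62, adjusted p 0.0356).

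The log2 ratio of Slc15a2 to Slc15a3 plus Slc15a4 differed by 1.57 against Slc15a4 alone and by 1.86 against Slc15a3 alone, and kept its sign with each heart left out. The mean levels per kilobase depended on the length: with the longest transcript they were 33.2 for Slc15a2 and 174 for Slc15a4, and with the coding length 0.228 for Slc15a1, 59.8 for Slc15a2, 499.9 for Slc15a3 and 296 for Slc15a4.

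Same-numbered hearts of the 2 groups deviated from their group means with correlations of -0.02, -0.168 and -0.289, and differently numbered hearts with -0.243 to 0.309. With 3 hearts per group, these values cannot settle whether the replicate numbers pair the hearts. With the replicate block, the log2 fold changes were 1.53 for Slc15a2 (adjusted p 0.845), -0.31 for Slc15a3 and -0.03 for Slc15a4, 0 genes were called, and the ratio difference of 1.75 had a sign-flip exact p of 0.25, the smallest 3 pairs can give.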
